A study of Mus musculus with 8 samples.

Results

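The genes described here carry glucose through glycolysis or belong to the transcriptional response to low oxygen. The list named 35 genes, and a gene was taken when a probe set of the array was annotated with that symbol alone. Of the 35, 31 were measured, out of 22180 genes with such a probe set. Aldoa and Ankrd37 shared their probe sets with a neighbour or relative in the annotation, and no probe set in the annotation used here carried the symbol Gpi1 or Eno1, so these 4 genes have no value.

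RNA came from the middle colon of 8 female mice of the strain C57BL/6-Trim58tm2313Arte, 9 weeks old and kept specific-pathogen-free. 4 were wild type (Trim58+/+) and 4 were knockouts (Trim58-/-) in which Trim58, coding for a TRIM-type ubiquitin ligase, is disrupted. All 8 mice drank 4% dextran sodium sulfate (DSS), which damages the lining of the colon, for 7 days, then plain water for 5 days, and were sampled on day 12. The comparison therefore asks what the genotype changes within recovering colitis, and it holds no colon without DSS.

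Glycolysis splits glucose into pyruvate, which cells turn into lactate when oxygen is short or when they need energy quickly. Hypoxia-inducible factors (HIF) are transcription factors whose alpha subunits are marked for destruction by prolyl hydroxylases while oxygen is present. When oxygen falls, the alpha subunits accumulate and raise genes for glucose uptake, glycolytic enzymes, vessel growth and pH control. The colon surface lies next to an oxygen-poor lumen, and activated neutrophils live largely on glycolysis.

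Each mouse gave 1 array, and all values below are array signals on the log2 scale, where a difference of 1 is a doubling. The array medians lay between 5.73 and 5.83. The Trim58 probe set read 5.12 ± 0.09 in wild type and 5.05 ± 0.24 in knockout (SD, n = 4 each; limma adjusted p = 0.839), so it did not separate the genotypes. Knockout replicates 1, 2 and 4 carried the signal of pancreatic digestive enzyme genes: the mean of 14 measured acinar markers of 17 was 10.43, 11.30 and 11.06 in them, 5.73 in knockout replicate 3 and 5.90 to 6.03 in wild type. The mean of 22 measured neutrophil markers of 23 ran from 5.23 to 5.53 in wild type and from 6.51 to 7.23 in knockout, with 14 called higher. Called here means a limma adjusted p under 0.05. Over all genes, 0.392% were called higher and 0.185% lower. The mean of 13 colonocyte markers was 10.47 to 10.74 in wild type and 10.10 to 10.31 in knockout, without overlap and with 2 called lower. The mean of 9 goblet cell markers was 11.71 to 11.92 and 11.39 to 11.72, with 0 called. The mean of 9 fibroblast markers was 8.99 to 9.38 and 9.42 to 9.75, without overlap and with 1 called higher. The part of these cell types in the differences below was not tested.

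No gene of the list passed the test between genotypes. With limma and Benjamini-Hochberg adjustment over all 22180 genes, 0 of 31 had an adjusted p under 0.05, against 0.577% of all genes, and the smallest adjusted p in the list was 0.116, for Slc16a3. At an unadjusted limma p under 0.05, 7 were higher in the knockout and 2 lower, together 29.0% of the 31, where 6.22% of all genes were higher and 8.1% lower (14.3% together). The 7 were the lactate exporter gene Slc16a3, the glucose transporter gene Slc2a3, the PFKFB regulator gene Pfkfb3, Hif1a, the hexokinase gene Hk3, the vasodilator peptide gene Adm and the phosphoglycerate kinase gene Pgk1. The 2 were Pfkfb4 and the carbonic anhydrase gene Car9. In 4 genes, 12.9% of the list, the genotypes did not overlap: Slc2a3, Hif1a and P4ha2 were higher in every knockout, against 3.79% of all genes, and Car9 was lower, against 5.02%. In either direction the share of all genes was 8.81%.

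Most differences in the list were small. Over the list the median difference, knockout minus wild type, was 0.02, with 18 genes above 0 and 13 below, and the median over all genes was -0.01. The median size of the difference, without its sign, was 0.09 in the list and 0.10 over all genes. The half-width of the 95% intervals ran from 0.152 to 0.483, so a gene would have to differ by more than that for its interval to leave 0. The differences ran from -0.39 for Pfkfb4 to 0.66 for Pfkfb3, so no measured difference in the list reached 2-fold. The 95% interval of Pfkfb3, from 0.20 to 1.12, did reach past 2-fold.

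**Figure D1:**
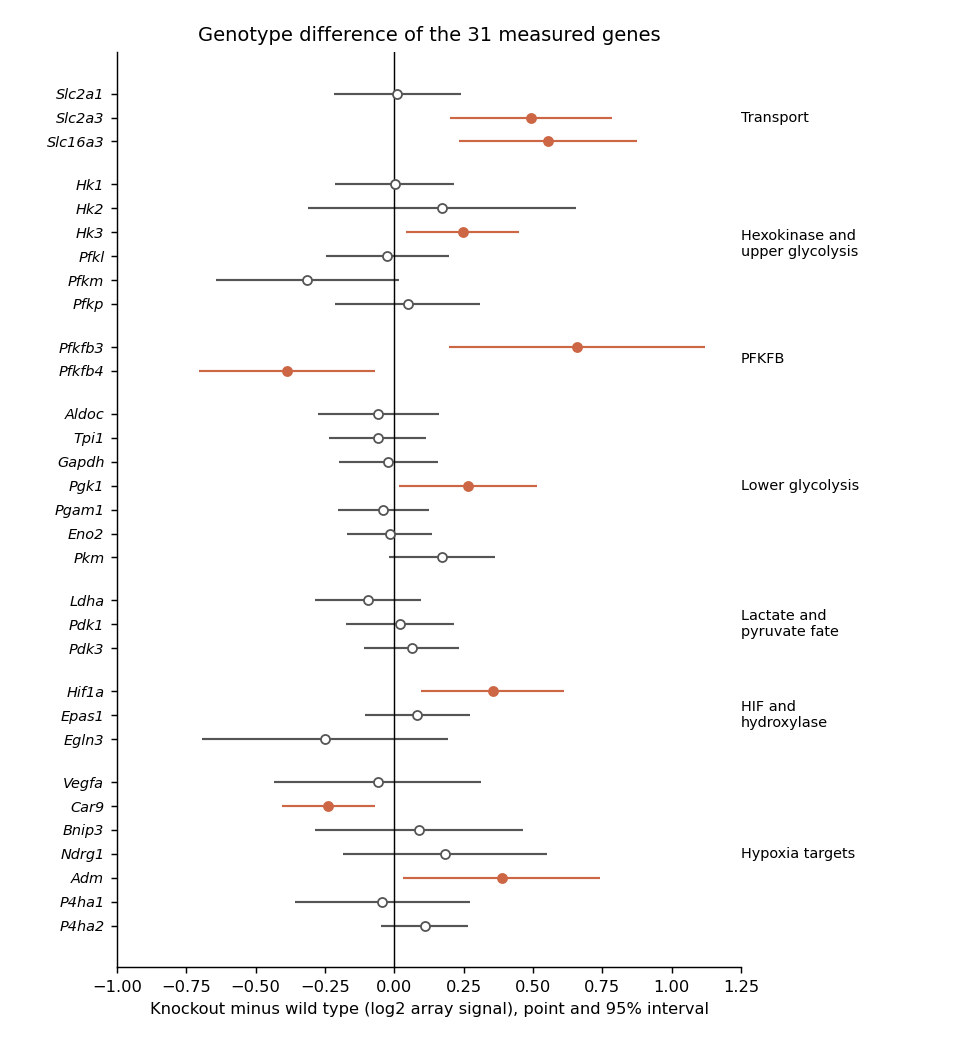
Difference between genotypes for the 31 measured genes, grouped by role. The x axis is the knockout mean minus the wild type mean in log2 signal, the bars are 95% intervals from limma (n = 4 each), and filled orange points have an unadjusted p under 0.05. Filled points run from -0.39 (Pfkfb4) to 0.66 (Pfkfb3), and Tpi1, Gapdh, Pgam1, Aldoc and Eno2 lie between -0.06 and -0.02.

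The promoters of these genes are shown because the HIF complex binds a short core, ACGTG or GCGTG, and the stretches let a reader see where such letters stand beside genes that differed in either direction. RefSeq (GRCm38.p6) gave promoter windows for 32 of the 35 listed genes, and the 250 bases before each start were searched on both strands, so that the core also appears as CACGT or CACGC. A palindrome, CACGTG, holds the core on both strands and is also the E-box that other factors bind. At least 1 core stood in 29 of the 32 genes (90.6%), where 47.8% of the 16990 tested genes with a window and 41.5% of all 27025 genes with a window had one. Counted by window, 80.4% of 46 windows of the list and 44.7% of 20611 windows of tested genes held a core. The median GC content of these windows was 60.4% in the list and 55.6% over tested genes, and its part in that share was not tested. The list includes genes chosen as hypoxia targets, so its higher share is not an independent finding. Such a match is a description of letters, not a binding site.

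The stretches below belong to the 8 genes with an unadjusted p under 0.05 that had a window, and Slc2a3 is named only. Capitals mark the core, each stretch reads 5′ to 3′ toward the gene, and for Pfkfb3 the window with more cores is given.
Slc16a3, chr11:120949020-120949066 (plus strand): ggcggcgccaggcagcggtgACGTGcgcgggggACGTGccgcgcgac
Hk3, chr13:55021517-55021561 (minus strand): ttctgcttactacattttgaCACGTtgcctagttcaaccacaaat
Pgk1, chrX:106186930-106186993 (plus strand): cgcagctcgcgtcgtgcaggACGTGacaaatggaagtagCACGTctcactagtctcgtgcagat
Pfkfb3, chr2:11502118-11502232 (minus strand): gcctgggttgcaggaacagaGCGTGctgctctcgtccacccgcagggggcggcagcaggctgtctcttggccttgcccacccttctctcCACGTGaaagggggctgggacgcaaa
Pfkfb4, chr9:108991765-108991809 (plus strand): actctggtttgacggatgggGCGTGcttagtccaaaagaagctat
Hif1a, chr12:73907712-73907821 (plus strand): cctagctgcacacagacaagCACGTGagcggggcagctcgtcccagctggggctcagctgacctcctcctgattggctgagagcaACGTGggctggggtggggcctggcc
Adm, chr7:110627547-110627627 (plus strand): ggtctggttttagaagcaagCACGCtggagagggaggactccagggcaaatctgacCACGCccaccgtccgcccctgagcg
Car9, chr4:43506988-43507025 (plus strand): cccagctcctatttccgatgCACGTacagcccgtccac
Among the 8 genes shown, the closest cores to a start were those of Slc16a3, whose nearer core began 14 bases before it, and Car9, at 18 bases. Other listed genes had closer or similar cores, as Ankrd37 at 6 bases, Hk1 at 12 and P4ha1 at 16. Hif1a and Pfkfb3 each held a CACGTG palindrome. All 8 genes shown held a core, as did 29 of the 32 listed genes with a window, so the presence of a core could not separate the directions.

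Among the carriers that move glucose in and lactate out, Slc2a3 and Slc16a3 had higher signals in the knockout and Slc2a1 did not. Slc2a3 encodes GLUT3, a high-affinity glucose transporter abundant in neurons and white blood cells. It read 6.09, 6.07, 5.64 and 5.92 in wild type replicates 1 to 4 and 6.19, 6.62, 6.60 and 6.28 in knockout replicates 1 to 4. Every knockout lay above every wild type array, though the nearest pair was close. The means were 5.93 ± 0.21 and 6.42 ± 0.22 (SD, n = 4 each), a 1.41-fold difference of 0.49 ± 0.13 (log2, SE; limma adjusted p = 0.123). Knockout replicate 3, which lacked the pancreatic signal, was 0.67 above the wild type mean, and the other knockouts averaged 0.44 above it.

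Slc16a3 encodes MCT4, the transporter that strongly glycolytic cells use to export lactate. Its signal was 7.12, 6.74, 6.96 and 6.73 in the wild type arrays and 7.11, 7.76, 7.56 and 7.34 in the knockout arrays. Knockout replicate 1 lay just under wild type replicate 1, and the other knockouts lay above all wild type arrays. The difference was 0.55 ± 0.14 (log2, SE), or 1.47-fold (limma adjusted p = 0.116), set at 0.67 by knockout replicate 3 alone and at 0.52 by the other knockouts together.

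Slc2a1 encodes GLUT1, the widespread basal glucose transporter and a textbook HIF target. It read 10.67 ± 0.19 in wild type and 10.68 ± 0.10 in knockout, with a 95% interval of the difference from -0.22 to 0.24. A second Slc2a1 probe set gave 5.35, 5.30, 5.55 and 5.44 in wild type and 4.89, 5.37, 5.35 and 5.31 in knockout. The gap between Slc2a3 and Slc2a1 signals within an array was -4.80, -4.59, -5.07 and -4.52 in wild type and -4.38, -4.004, -4.19 and -4.47 in knockout. Since signals of unlike probes cannot be ranked against each other, such a gap is read only as a change between arrays: it was 0.48 higher in the knockout on the log2 scale, and the genotypes did not overlap.

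The hexokinases trap glucose in the cell as glucose 6-phosphate. Hk3, the form typical of white blood cells, read 6.01, 5.80, 5.73 and 5.80 in wild type and 5.99, 6.23, 6.11 and 5.98 in knockout. Wild type replicate 1 overlapped the lower knockouts, and the other wild type arrays lay below every knockout. The difference was 0.25 ± 0.09 (log2, SE; 1.19-fold; limma adjusted p = 0.246). Hk2, the inducible form, spread widely in wild type, with 9.46, 9.35, 9.59 and 8.54, and read 9.24, 9.57, 9.68 and 9.13 in knockout. Wild type replicate 4 was the low array, and the difference went from 0.17 ± 0.22 (log2, SE) to -0.06 without it. Hk1, the housekeeping form, was 8.21 ± 0.17 in wild type and 8.21 ± 0.08 in knockout, with an interval of the difference from -0.21 to 0.21.

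Phosphofructokinase commits sugar to glycolysis and has liver, muscle and platelet subunits. Pfkl and Pfkp, the liver and platelet subunits, had intervals of -0.25 to 0.20 and -0.21 to 0.31. Pfkm, the muscle subunit, read 5.72, 5.97, 5.50 and 5.72 in wild type and 5.69, 5.48, 5.47 and 5.00 in knockout, a difference of -0.31 ± 0.15 (log2, SE; limma adjusted p = 0.375). Knockout replicate 4 was the low array, and without it the difference was -0.18. All 10 smooth muscle markers also had differences below 0, none called, and their mean ran from 9.93 to 10.36 in wild type and from 9.61 to 10.19 in knockout; their part in the Pfkm difference was not tested.

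The PFKFB enzymes make and break fructose 2,6-bisphosphate, the main activator of phosphofructokinase. The 2 forms in the list differed in opposite directions. Pfkfb2, measured outside the list, differed by 0.09 with overlapping genotypes (limma adjusted p = 0.748). Pfkfb3, which strongly favours synthesis and so drives glycolysis, read 6.94, 6.37, 6.38 and 6.12 in wild type and 6.76, 7.44, 7.44 and 6.80 in knockout. Knockout replicates 2 and 3 stood highest, and wild type replicate 1 lay above the other knockouts. The means were 6.45 ± 0.35 and 7.11 ± 0.38 (SD, n = 4 each), the widest difference in the list at 0.66 ± 0.21 (log2, SE; 1.58-fold; limma adjusted p = 0.173). Knockout replicate 3 was 0.99 above the wild type mean and the other knockouts averaged 0.55.

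Pfkfb4 read 7.28, 7.34, 7.64 and 7.13 in wild type and 7.09, 6.73, 7.25 and 6.76 in knockout. Knockout replicates 2 and 4 were the low arrays, and knockout replicate 3 lay inside the wild type range. The difference was -0.39 ± 0.14 (log2, SE; 1.31-fold lower; limma adjusted p = 0.243), from a mean of -0.49 in knockout replicates 1, 2 and 4 and -0.095 in knockout replicate 3. The Pfkfb3 signal minus the Pfkfb4 signal of the same array was -0.34, -0.96, -1.27 and -1.004 in wild type and -0.33, 0.71, 0.19 and 0.04 in knockout. The pair thus changed unequally by 1.05 on the log2 scale, and wild type replicate 1 and knockout replicate 1 nearly met. Of 9 such pairs of related genes, this one and Slc2a3 with Slc2a1 were the 2 in which the genotypes did not overlap, and the share over all pairs of genes was not computed.

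**Figure D2:**
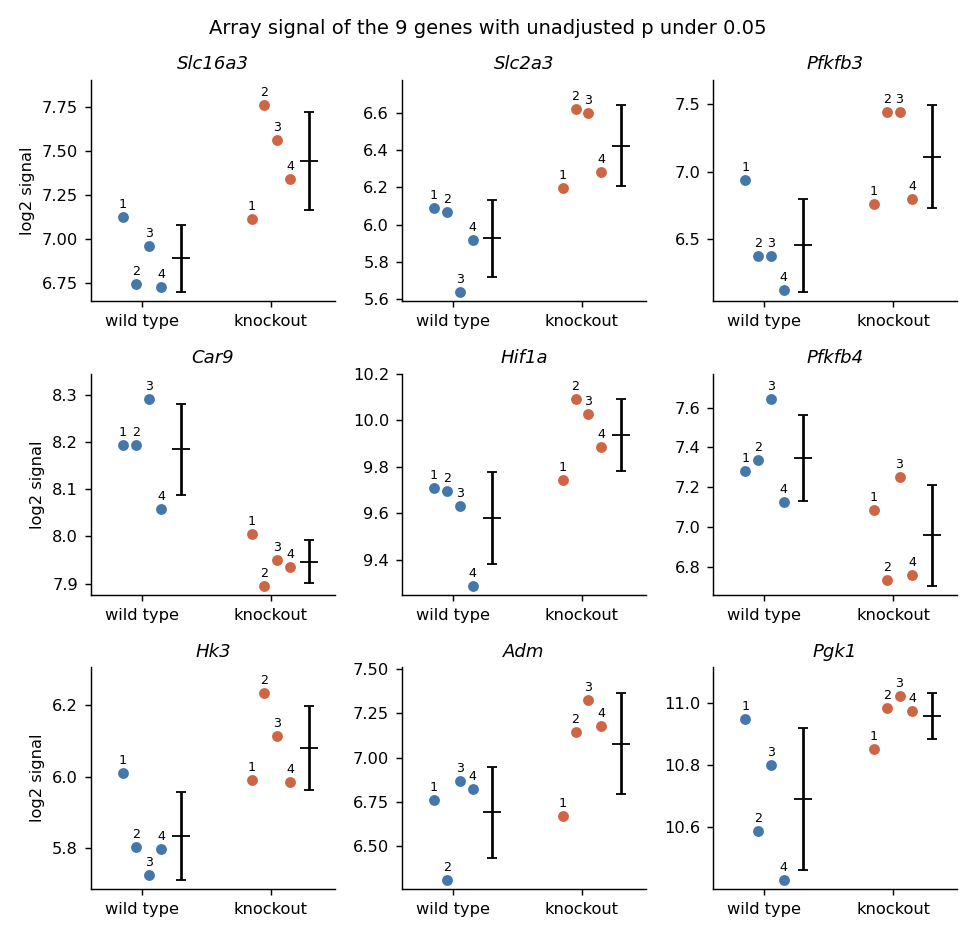
Log2 signal of the 9 genes with an unadjusted p under 0.05, 1 panel a gene. Points are arrays marked with their replicate number, and bars are the mean ± SD of each genotype (n = 4). Slc2a3 and Hif1a lie higher in all knockouts and Car9 lower, and in the other 6 panels at least 1 knockout overlaps the wild type arrays.

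The later steps of glycolysis, which yields ATP and pyruvate, showed small differences. Pgk1, which makes the first ATP of the pathway, read 10.95, 10.59, 10.80 and 10.43 in wild type and 10.85, 10.98, 11.02 and 10.97 in knockout. The knockouts were tightly grouped, and wild type replicate 1 fell among them. The difference was 0.27 ± 0.11 (log2, SE; 1.202-fold; limma adjusted p = 0.315). Pkm, the last and ATP-yielding step, read 11.32, 11.19, 11.05 and 11.02 in wild type and 11.24, 11.33, 11.39 and 11.31 in knockout, a difference of 0.17 with an interval from -0.02 to 0.36.

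Triose phosphate isomerase (Tpi1), the glyceraldehyde phosphate dehydrogenase gene Gapdh, the mutase gene Pgam1, the brain-type aldolase gene Aldoc and the neuronal enolase gene Eno2 had differences between -0.06 and -0.02 on the log2 scale. All 5 intervals held 0, the widest running from -0.28 to 0.16 for Aldoc and the narrowest from -0.17 to 0.14 for Eno2. Gapdh had 3 probe sets of its own, with differences of -0.02, -0.02 and 0.05, and 8 more that the annotation shares with Gapdh-like copies, so its signal cannot be placed in 1 gene with certainty. The second probe set of Pgam1 gave 7.46, 7.36, 7.17 and 7.02 in wild type and 6.65, 6.91, 7.35 and 7.24 in knockout; its difference was -0.21.

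Pyruvate then goes to lactate or into the mitochondria. Ldha, which makes lactate, read 8.61, 8.48, 8.34 and 8.30 in wild type and 8.28, 8.38, 8.34 and 8.35 in knockout, a difference of -0.09 with an interval from -0.28 to 0.10. The kinases Pdk1 and Pdk3, which close the mitochondrial entry by inhibiting pyruvate dehydrogenase, had differences of 0.02 and 0.06, with intervals from -0.17 to 0.21 and from -0.11 to 0.23. The lactate exporter gene Slc16a3, with the second-largest difference of the list, thus stood beside a lactate dehydrogenase gene with a difference of -0.09. The genotypes overlapped in both genes, and neither was called.

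Of the oxygen-response regulators, Hif1a stood higher in every knockout. Hif1a encodes the HIF-1 alpha subunit, whose protein is set mainly by degradation, so RNA is only part of its control. It read 9.71, 9.70, 9.63 and 9.29 in wild type and 9.74, 10.09, 10.03 and 9.88 in knockout, with wild type replicate 4 the low array. The difference was 0.35 ± 0.12 (log2, SE; 1.28-fold; limma adjusted p = 0.187). A second Hif1a probe set, at 6.94, 6.01, 6.28 and 5.70 in wild type and 5.96, 6.38, 6.30 and 6.44 in knockout, differed by 0.04.

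Epas1, the HIF-2 alpha subunit of endothelial and several other cells, differed by 0.08 with an interval from -0.11 to 0.27. Egln3 encodes the prolyl hydroxylase PHD3, itself raised by HIF. It read 10.16, 9.50, 9.56 and 9.39 in wild type and 9.03, 9.17, 9.68 and 9.73 in knockout. Knockout replicates 1 and 2 were below every wild type array and replicates 3 and 4 were not, so the difference of -0.25 ± 0.20 (log2, SE) was within the spread.

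The hypoxia targets went no common way. Adm encodes adrenomedullin and read 6.76, 6.31, 6.87 and 6.83 in wild type and 6.67, 7.15, 7.33 and 7.18 in knockout. Knockout replicate 1 lay within the wild type range and the other knockouts above it. The difference was 0.39 ± 0.16 (log2, SE; 1.31-fold; limma adjusted p = 0.303), from 0.63 in knockout replicate 3 and a mean of 0.31 in the others.

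Car9, the cell-surface carbonic anhydrase that hypoxic cells use to control pH, read 8.19, 8.19, 8.29 and 8.06 in wild type and 8.01, 7.90, 7.95 and 7.93 in knockout. All knockouts were below all wild type arrays by a narrow margin. The difference was -0.24 ± 0.08 (log2, SE; 1.18-fold lower; limma adjusted p = 0.178). The second Car9 probe set read 7.94, 7.98, 7.88 and 8.13 in wild type and 7.98, 8.06, 7.86 and 7.93 in knockout, a difference of -0.02, so the probe sets disagreed.

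Vegfa, the vessel growth factor, read 9.33, 8.86, 9.17 and 8.43 in wild type and 8.87, 8.87, 9.01 and 8.81 in knockout, all knockouts inside the wild type range. Bnip3, which marks mitochondria for removal, read 7.16, 6.57, 7.09 and 6.39 in wild type and 6.70, 7.01, 6.84 and 7.02 in knockout, again inside it. Their intervals ran from -0.43 to 0.31 and from -0.29 to 0.47.

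Ndrg1, a stress-response gene, read 9.57, 9.27, 9.62 and 9.63 in wild type and 10.08, 9.95, 9.36 and 9.44 in knockout. Knockout replicates 1 and 2 stood above the wild type arrays and replicates 3 and 4 among them, and the interval ran from -0.18 to 0.55. The collagen prolyl hydroxylase subunits P4ha1 and P4ha2 differed by -0.04 and 0.11. P4ha2 read 6.17, 6.06, 6.10 and 6.18 in wild type and 6.30, 6.24, 6.19 and 6.21 in knockout. The genotypes did not overlap, by a narrow margin, and the difference had an SE of 0.07 (limma adjusted p = 0.539).

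The genes of the list also varied together from mouse to mouse within wild type. Wild type replicate 1 had the highest of the 4 wild type values in 21 of 31 genes (67.7%), and over all genes it was highest in 24.3%. Wild type replicate 4 had the lowest in 18 of 31 (58.1%, against 29.2% of all genes). The mean over the 31 genes was 8.57, 8.38, 8.43 and 8.26 in the wild type arrays and 8.42, 8.52, 8.55 and 8.45 in the knockouts, all knockouts inside the wild type range. The SD was larger in wild type in 21 of the 31 genes, as in Vegfa with 0.40 against 0.09 and Bnip3 with 0.38 against 0.15.

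**Figure D3:**
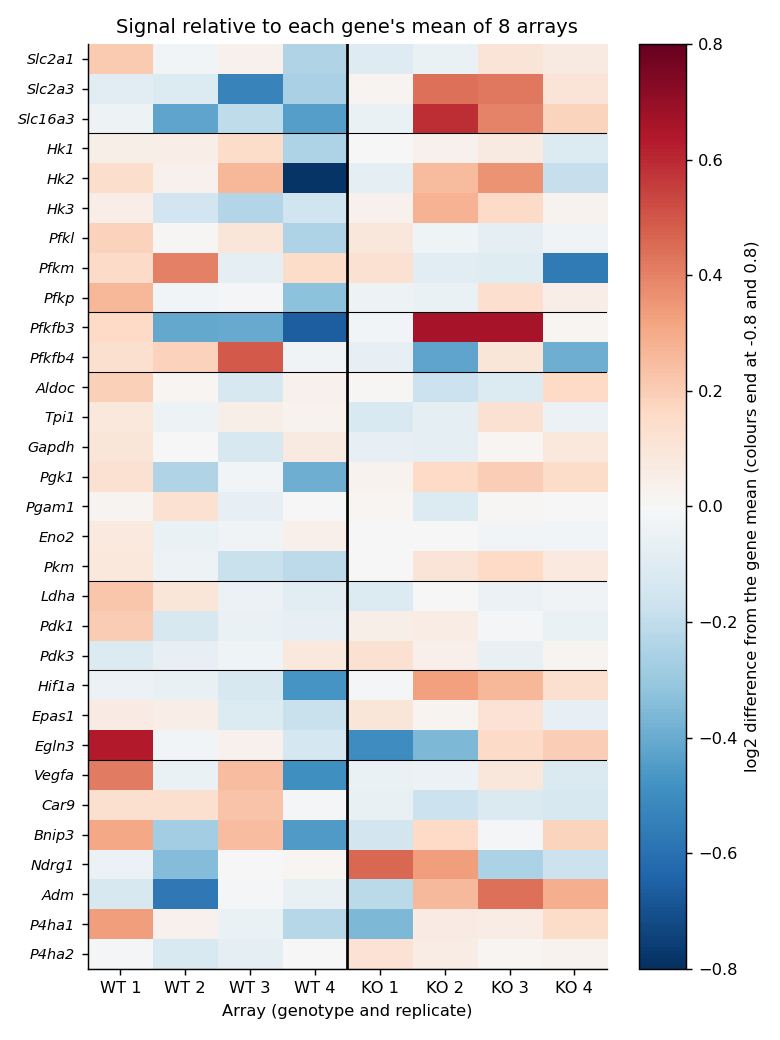
Signal of each of the 31 genes in each array minus that gene's mean over the 8 arrays (log2; colours end at -0.8 and 0.8), with the roles parted by thin lines and the genotypes by a thick one. The wild type 1 column is mostly warm and the wild type 4 column mostly cold, and the warm patch at right holds Slc2a3, Slc16a3 and Pfkfb3 in knockout replicates 2 and 3.

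For 5 of the genes, values were set beside the neutrophil signal of the same arrays. In the knockouts the neutrophil marker mean was 6.61, 7.23, 6.91 and 6.51 in replicates 1 to 4, and replicates 2 and 3 were also the highest knockouts for Slc2a3, Slc16a3, Hk3, Pfkfb3 and Hif1a. In wild type it was 5.53, 5.24, 5.23 and 5.45, and replicate 1 was also the highest wild type array for these 5 genes. That array was the highest of its group in 21 of the 31 genes, so its match was not particular to these 5. Knockout replicates 2 and 3 and wild type replicate 1 were also the highest of their groups for Pgk1, Pkm and Vegfa. For Vegfa all knockouts lay inside the wild type range. The order of the other arrays differed: wild type replicate 4 had the second-highest neutrophil mean of its group and the lowest Slc16a3, Pfkfb3 and Hif1a, and knockout replicate 1 was above replicate 4 in neutrophil signal and below it for Slc2a3, Slc16a3, Pfkfb3 and Hif1a. Adm did not share the pattern, as its highest arrays were knockout replicate 3 and wild type replicate 3, the latter with the lowest neutrophil mean. Macrophage markers ran from 7.36 to 8.27 in wild type and from 8.19 to 8.56 in knockout. Of the 17, 3 were called higher, against 0.392% of all genes. In whole tissue a larger number of cells of a type and more RNA per cell cannot be told apart, and the part of neutrophils or macrophages in these differences was not tested.

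**Figure D4:**
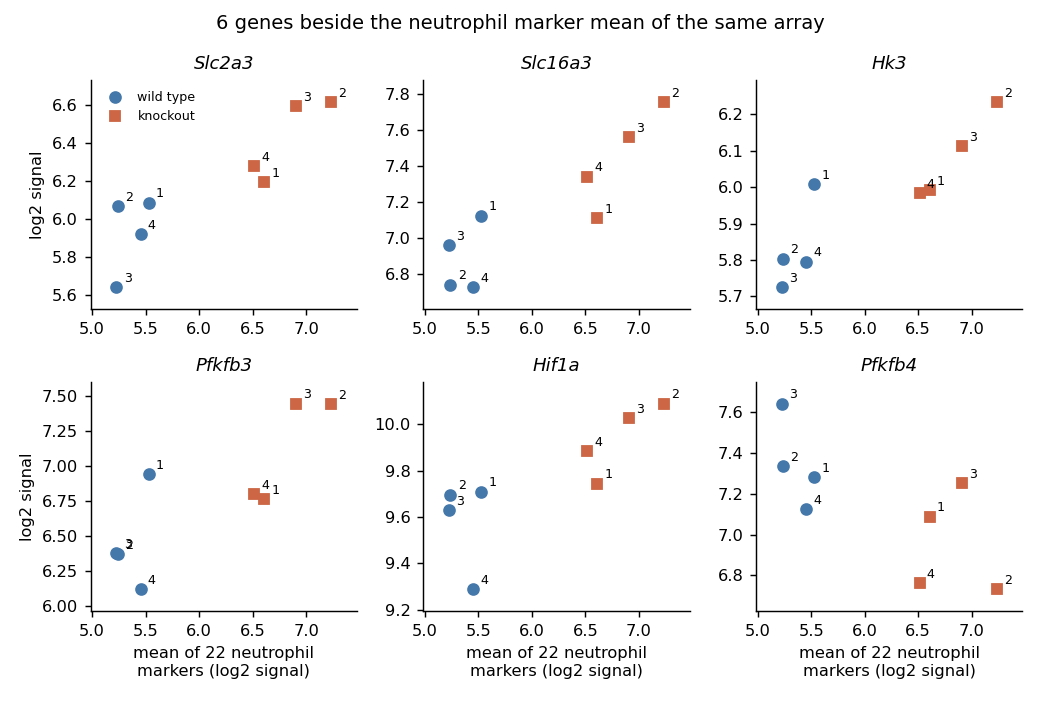
Log2 signal of 6 genes (y axes) against the mean of 22 neutrophil markers in the same array (x axes, log2 signal), circles for wild type and squares for knockout, numbered by replicate. Knockouts lie between 6.51 and 7.23 on the x axis and wild type arrays between 5.23 and 5.53, and knockouts 2 and 3 are the highest of their group in 5 panels and not in that of Pfkfb4.

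Other genes of the same pathways were described from 2 further lists. Of 42 measured genes of glucose handling outside the list, 1 was called lower and 0 higher (limma, adjusted over all genes), with 3 higher and 8 lower at an unadjusted p under 0.05. Over all genes 0.392% were called higher and 0.185% lower, and 6.22% and 8.1% had such an unadjusted p. The called gene was G6pc3, the widely expressed glucose 6-phosphatase that neutrophils need to dispose of a toxic sugar phosphate. It fell from 7.86, 7.94, 7.84 and 8.11 in wild type to 7.37, 7.34, 7.51 and 7.45 in knockout, with no overlap. The difference was -0.52 ± 0.08 (log2, SE; 1.44-fold lower; limma adjusted p = 0.0299), and it was -0.43 in knockout replicate 3. The call was kept without wild type replicate 1 or 3 or knockout replicate 3 and lost without any of the other 5 arrays, with an adjusted p up to 0.111.

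The next 4 by p did not pass. The glucose synthesis gene Pck1 differed by -0.82, the muscle enolase gene Eno3 by -1.11 and the pyruvate dehydrogenase kinase gene Pdk2 by -0.60. The glycogen phosphorylase gene Pygl, found in liver and white blood cells, differed by 0.49. Their limma adjusted p lay between 0.0792 and 0.106, and in each the genotypes did not overlap. Pygl passed with array weights (limma adjusted p = 0.0428). Eno3 read 9.88, 10.06, 9.70 and 9.61 in wild type and 8.23, 8.09, 9.22 and 9.28 in knockout, so knockout replicates 1 and 2 carried most of its difference.

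Of 47 measured hypoxia genes outside the list, 2 were called higher and 0 lower, with 12 higher and 3 lower at an unadjusted p under 0.05, beside the same shares of all genes (0.392% and 0.185% called, 6.22% and 8.1% unadjusted). Stc1, a secreted glycoprotein, rose from 5.17, 5.37, 4.69 and 5.13 in wild type to 6.38, 6.20, 5.69 and 6.21 in knockout. The difference was 1.03 ± 0.17 (log2, SE; 2.04-fold; limma adjusted p = 0.0309), from 0.60 in knockout replicate 3 and a mean of 1.17 in the others. Hmox1, which breaks down haem and also answers oxidative stress, rose from 6.16, 5.94, 5.83 and 6.24 to 6.74, 7.18, 6.66 and 6.70, a difference of 0.78 ± 0.13 (log2, SE; 1.71-fold; limma adjusted p = 0.0361). Both calls were kept without knockout replicate 3 and lost without any of the other 7 arrays, with adjusted p up to 0.111 for Stc1 and 0.145 for Hmox1.

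Angptl4, a regulator of lipid uptake, differed by 0.90 and Plaur, the urokinase receptor of myeloid cells, by 0.95, with limma adjusted p of 0.0951 and 0.0995 and no overlap. Angptl4 passed without knockout replicate 3, with a difference of 1.06 (limma adjusted p = 0.039). Edn1, the vasoconstrictor endothelin-1, differed by -1.39 (limma adjusted p = 0.0898). It read 9.15, 9.21, 7.65 and 8.62 in wild type and 7.31, 6.84, 7.14 and 7.76 in knockout, and wild type replicate 3 fell into the knockout range. It passed with array weights (limma adjusted p = 0.0493) and without that array, with a difference of -1.73 and an adjusted p of 0.0198.

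**Figure D5:**
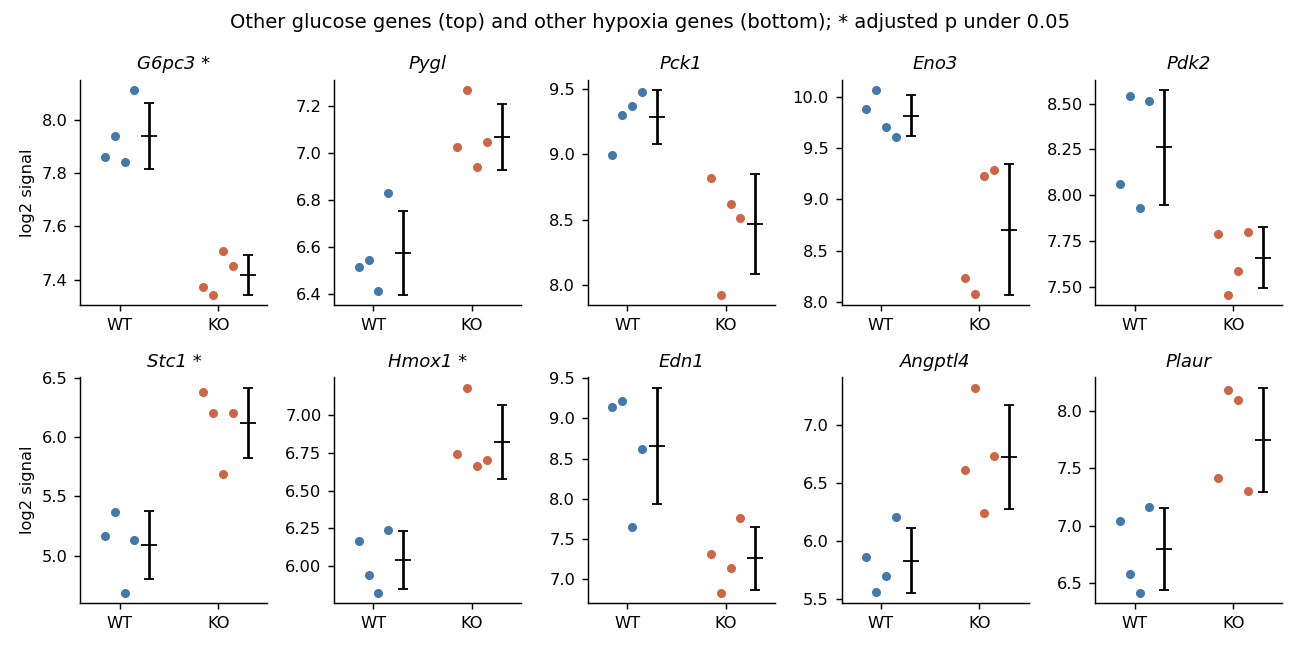
Log2 signal of the 5 genes with the smallest p from each of 2 further lists, glucose handling in the upper row and hypoxia in the lower. Points are arrays, bars are mean ± SD (n = 4), and the asterisk marks an adjusted p under 0.05. G6pc3 is lower and Stc1 and Hmox1 are higher in every knockout.

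With knockout replicate 3 left out, 5 of the 31 genes were higher and 2 lower at an unadjusted p under 0.05, and with knockout replicate 3 alone against the 4 wild type arrays 4 were higher and 0 lower, with 0 called both times. Without knockout replicate 2 the counts were 4 higher and 1 lower, and without knockout replicate 4 they were 5 and 1. Slc2a3, Slc16a3, Pfkfb3, Hif1a and Car9 kept an unadjusted p under 0.05 in each of the 8 fits that left out 1 array. Hk3 did in 6, Pfkfb4 in 5, Adm in 4 and Pgk1 in 3. Hif1a and Car9 depended on the probe set kept. With the mean of probe sets their differences shrank to 0.20 and -0.13 (limma adjusted p = 0.649 and 0.409), and the counts were 6 higher and 1 lower.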

How the data were processed

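RNA from 8 middle colons (200 ng each, per the labels' protocols) was hybridised to 1 Affymetrix whole-transcript array a mouse. The deposited values are log2 signals made by the authors with RMA in Affymetrix Expression Console 1.4, per the submitters' processing notes. RMA forces the arrays onto 1 distribution and compresses differences of dim probe sets. No scan batch is named in the labels.

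Of 41345 probe sets, 23521 carried 1 gene symbol in the platform annotation, 1814 several and 16010 none. 23328 of the single-symbol probe sets were found by Entrez identifier in the RefSeq gene table (GRCm38.p6) and symbols updated. Per gene the probe set with the highest mean over the 8 arrays was kept, leaving 22180 genes, with no filter on dim genes.

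For the genotype comparison, lmFit and eBayes of limma 3.58.1 (R 4.3.3) were fitted without covariates to all genes, with Benjamini-Hochberg adjusted p under 0.05 as the threshold. The steps were tested on simulated data in which genes varied independently. Of 50 genes given a log2 difference of 0.5, 26 (52.0%) were called, and 45 of 50 (90.0%) given 1.0. Of 21980 genes given no difference, 5 were called. Replicates are separate mice. Replicate numbers did not pair the arrays: deviations from the group mean of same-numbered arrays correlated between -0.16 and 0.05. With 4 arrays a genotype, their number sets the precision.

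All genes of the list are named. Values in every array are given for genes with an unadjusted p under 0.05, those without overlap and the 10 largest differences, and for others chosen after their values were seen. Of each further list the called genes and the 5 smallest p are named, and Pfkfb2 is named beside its relatives. The genes, lists and tests were chosen with earlier results of these data known. Alternatives were equal array medians, a second quantile normalization, array weights, a trended robust variance, dropping the dimmest genes (14787 kept), averaging probe sets, a replicate block, each array left out, and knockout replicate 3 alone.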

Additional observations from a re-analysis of the deposited data

Results flagged for a closer look

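In groups of 4 arrays, a value was singled out when its gap to the nearest array exceeded Dixon's critical value for 4 values, a limit that chance passes in about 1 of 20 groups. Of 82 groups examined, 3 were singled out. Pgam1 in knockout replicate 2 read 8.92, below the other knockouts at 9.03 to 9.05. Ndrg1 in wild type replicate 2 read 9.27, below the others at 9.57 to 9.63. Hmox1 in knockout replicate 2 read 7.18, above the others at 6.66 to 6.74, and without that array its difference was 0.66 and its call was lost (limma adjusted p = 0.0701).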

How the results depend on the processing

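0 of the 31 genes were called by limma in any of the 16 alternatives, the smallest adjusted p being 0.085 for Slc16a3 with the dimmest genes left out (14787 genes kept, all 31 among them). At an unadjusted p under 0.05, 7 higher and 2 lower became 4 and 0 with knockout replicate 3 alone, where 1 array is assumed to vary like the wild type, and 1 lower with the mean of probe sets. Leaving out 1 array gave 4 to 8 higher and 1 to 3 lower. Over all genes, 87 called higher became 56 with the replicate block and 14 with knockout replicate 3 alone, and 24 to 172 without 1 array. The 41 called lower became 8 with the replicate block, 0 with knockout replicate 3 alone, 69 with array weights, 80 with the dimmest genes left out, 64 with the variance trend, and 1 to 80 without 1 array. Both lowest counts came without wild type replicate 2 and both highest without knockout replicate 3. Without knockout replicate 1 or 2 or wild type replicate 3 or 4 the higher or the lower count also fell by over 1.5 times, the higher to between 36 and 56 and the lower to between 7 and 28. The replicate numbers do not pair the arrays.

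Of the further lists, glucose handling had 2 calls with array weights, 0 with the replicate block, 0 with knockout replicate 3 alone and 0 to 1 without 1 array. Hypoxia had 4, 1, 0 and 0 to 3 in the same order.

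These differences changed sign, among them Egln3 from -0.25, Ndrg1 from 0.18 and Hk2 from 0.17. With array weights Slc2a1 was -0.0143 and Hk1 -0.0312, and with equal array medians Hk1 was -0.006. With the mean of probe sets Slc2a1 was -0.0856 and Gapdh 0.0022. With knockout replicate 3 alone Tpi1 was 0.0948, Gapdh 0.0018, Pdk1 -0.0024, Pdk3 -0.0266, Egln3 0.0263, Vegfa 0.0599, Ndrg1 -0.164 and P4ha1 0.0379. Without 1 array Slc2a1 ran from -0.0683 to 0.0819, Hk1 from -0.0817 to 0.0497, Hk2 from -0.0597 to 0.2905, Pfkl from -0.1117 to 0.0324, Pfkp from -0.0541 to 0.1439, Gapdh from -0.068 to 0.0069, Eno2 from -0.0372 to 0.0056, Pdk1 from -0.0192 to 0.092, Vegfa from -0.2329 to 0.068, Bnip3 from -0.0482 to 0.2073, P4ha1 from -0.1272 to 0.0696 and Trim58 from -0.1785 to 0.0029. The causes were not tested.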
